A study of Sus scrofa with 16 samples.

Results

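The genes described here encode peptidases of the intestinal brush border other than the best known ones, aminopeptidase N and dipeptidyl peptidase 4. The set was listed by symbol as ENPEP, MEP1A, MEP1B, ACE, XPNPEP2, NAALADL1, CPO and DPEP1. Of these 8, 7 were found by symbol among the 25880 genes of the count tables, each as 1 gene. MEP1A was not matched to a gene and was not analysed here. The measured values did not enter the choice rule, but the set was proposed with earlier results of these data known.

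Dietary protein reaches the small intestine as a mixture of peptides, and the microvilli of enterocytes carry peptidases on their outer face that trim these peptides to amino acids and very short peptides. Some of these enzymes take residues from the amino end, some from the carboxyl end, some cut inside the chain, and some split dipeptides, so that they act on one another's products. The products enter the cell through peptide and amino acid carriers, and digestion and uptake are known to be distributed unevenly along the intestine.

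Epithelium came from 7.5-week-old mixed-breed female pigs and was profiled by droplet single-cell RNA sequencing that counts unique molecules (UMIs) near the 3′ end of transcripts. DUOD was duodenum taken directly past the pylorus, JEJ was jejunum, IPP was ileum that contains Peyer's patches (organised lymphoid tissue in the gut wall), and NoPP came from ileum dissected free of such patches. All 4 groups were handled alike, with mucus loosened by dithiothreitol, epithelium released by EDTA, and viable cells enriched on Percoll. The labels list 16 titles, 4 per region, but 1 matrix per region pools them and no cell can be traced to a title. Each region is therefore 1 sample, no difference was tested, and all intervals are 95% intervals for counting error only. They do not cover differences between pigs or tissue pieces.

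The matrices held between 44726845 UMIs (NoPP) and 91813234 UMIs (DUOD). Barcodes with at least 1000 UMIs, 500 genes and at most 25% mitochondrial UMIs were kept. These were 718, 986, 3273 and 2084 barcodes in the order DUOD, JEJ, IPP and NoPP, holding between 8.74% and 34.2% of the UMIs of their library. From NoPP, 121 barcodes had been left out because another library held at least 10 times as many of their UMIs, and DUOD and NoPP shared 111 kept barcodes before that step and 1 after it. Of the kept barcodes 270, 320, 256 and 141, in the same order, passed as epithelial by their marker genes, and 208, 202, 164 and 35 of these as enterocyte-like. These enterocyte-like cells held all 11 enterocyte markers found in the files and all 10 epithelial ones in every region. Again in that order, they had medians of 25639, 5690, 16247 and 15997 UMIs per cell and of 13.0, 8.46, 17.5 and 13.7% mitochondrial UMIs. Of the 7 goblet markers found, 6 were detected in enterocyte-like cells of each region, summing to 1253 CPM in DUOD and 109 to 199 CPM elsewhere. Of the 12 enteroendocrine markers between 2 and 8 were detected, summing to 2.32 to 94.6 CPM. Of the 7 markers of T or innate lymphoid cells 6 or 7 were detected, summing to 6.0 to 75.3 CPM, highest in NoPP, and ATOH1, which specifies secretory cells, was at 0 in every region. The part of these other cells in the results was not tested.

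In enterocyte-like cells the set was low in duodenum and high in ileum, but its members did not share one profile. ENPEP, NAALADL1 and MEP1B were higher at each step from DUOD to JEJ to ileum. ACE was near 0 in DUOD and at like levels in the other 3 regions. XPNPEP2 and CPO had at most 6 UMIs in DUOD or JEJ and at least 179 in each ileal library, and DPEP1 was low in both DUOD and JEJ and more than 20-fold higher in ileum. Levels below are CPM, a gene's UMIs per 1000000 UMIs of the class, and are compared between regions for 1 gene, not between genes, since transcript length and 3′ capture differ.

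**Figure D1:**
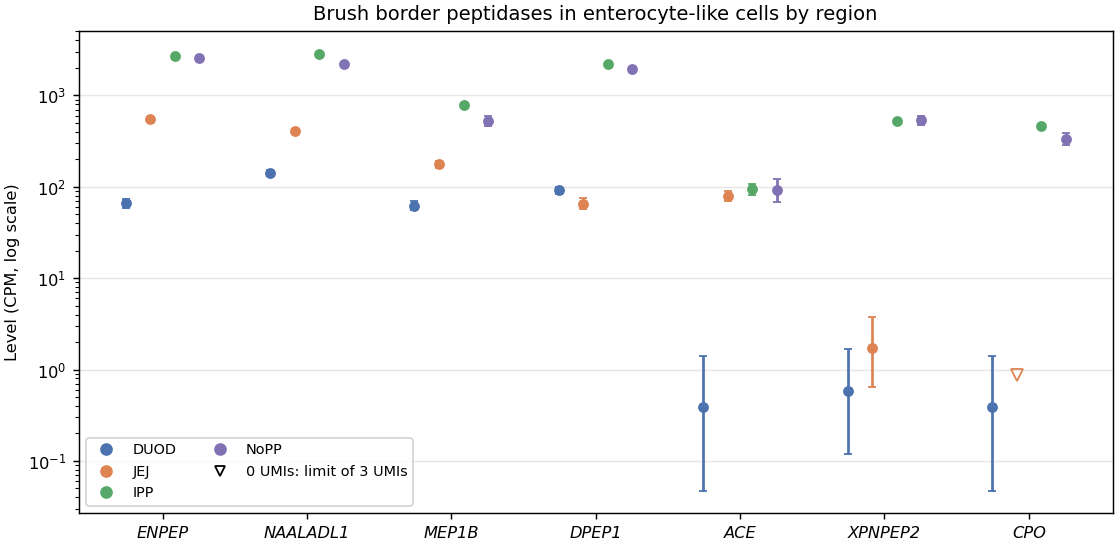
Level of each peptidase gene (CPM, log axis) in enterocyte-like cells of DUOD, JEJ, IPP and NoPP; points are summed UMIs over the class total, bars are exact Poisson 95% intervals and the open triangle is the limit of 3 UMIs for a count of 0. ENPEP lies at 66.0 CPM in DUOD and 2722 CPM in IPP, whereas XPNPEP2 and CPO lie under 2 CPM in DUOD and JEJ and over 300 CPM in both ileal regions.

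Among the enzymes that act at the amino end, ENPEP (ENSSSCG00000009132) encodes glutamyl aminopeptidase, also called aminopeptidase A, which removes acidic residues and also cleaves angiotensin peptides. It stood at 66.0 CPM in DUOD (59.2 to 73.4, 341 UMIs), 551 CPM in JEJ (526 to 576, 1899 UMIs), 2722 CPM in IPP (2660 to 2786, 7138 UMIs) and 2547 CPM in NoPP (2413 to 2687, 1354 UMIs). The order was therefore DUOD, JEJ and then both ileal regions, which differed from each other by 1.07-fold (1.01 to 1.13). JEJ was 8.35-fold above DUOD (7.43 to 9.39), and NoPP was 4.62-fold above JEJ (4.31 to 4.96).

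The regional order was also seen cell by cell. The median enterocyte-like cell had 0 CPM of ENPEP in DUOD, 403 CPM in JEJ, 2594 CPM in IPP and 1991 CPM in NoPP. After every cell was thinned to 3000 UMIs, ENPEP had a UMI in 13.5% of 171 DUOD cells, 69.2% of 133 JEJ cells, 98.0% of 152 IPP cells and 96.6% of 29 NoPP cells. The same thinning left out 37, 69, 12 and 6 shallower cells, and the shares of all cells without thinning were 42.8, 71.3, 96.3 and 88.6%. T or innate lymphoid-like cells, which should lack the gene and serve as background, had an ENPEP UMI in 0.559, 1.48, 7.0 and 3.01% of cells at the same depth.

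NAALADL1 (ENSSSCG00000013010) encodes a membrane metallopeptidase related to glutamate carboxypeptidase 2; for the human protein aminopeptidase activity has been described. Its level was 140 CPM in DUOD (130 to 151, 725 UMIs), 410 CPM in JEJ (389 to 432, 1412 UMIs), 2830 CPM in IPP (2766 to 2895, 7420 UMIs) and 2212 CPM in NoPP (2088 to 2343, 1176 UMIs). The regions stood in the same order as for ENPEP, with smaller steps at the duodenal end. JEJ was 2.92-fold above DUOD (2.67 to 3.20), NoPP 5.40-fold above JEJ (4.99 to 5.84) and IPP 1.28-fold above NoPP (1.20 to 1.36). At 3000 UMIs per cell a NAALADL1 UMI was found in 32.2, 57.9, 98.0 and 89.7% of cells, in the order DUOD, JEJ, IPP and NoPP, against 2.23, 3.46, 8.89 and 5.32% of T or innate lymphoid-like cells.

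XPNPEP2 (ENSSSCG00000012651) encodes membrane-bound aminopeptidase P, which removes a residue that stands before proline, a bond most aminopeptidases leave intact. It had 3 UMIs in DUOD (0.581 CPM, 0.120 to 1.70), 6 in JEJ (1.74 CPM, 0.639 to 3.79), 1385 in IPP (528 CPM, 501 to 557) and 284 in NoPP (534 CPM, 474 to 600). Only the ileal libraries held it in quantity, and IPP and NoPP differed by 1.01-fold, with an interval (0.887 to 1.15) that holds 1. NoPP was 307-fold above JEJ (139 to 843), and DUOD and JEJ could not be ordered.

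All 3 XPNPEP2 UMIs and both CPO UMIs of DUOD sat in 1 enterocyte-like barcode of 11754 UMIs. That barcode also held 586 of the 589 UMIs of the ileal bile acid binding protein FABP6 in the class, 28 of the 341 ENPEP UMIs and 38 of the 473 DPEP1 UMIs. The same barcode carried at most 488 UMIs in another library. Without it XPNPEP2 and CPO had 0 UMIs in the DUOD class, and NoPP was at least 918-fold above DUOD for XPNPEP2 and at least 579-fold for CPO, counting 3 UMIs over the class as the limit for 0.

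The endopeptidase of the set, MEP1B (ENSSSCG00000003732), encodes the beta subunit of meprin, a metalloproteinase that cuts inside peptide chains and can also act on mucin. Its level was 62.3 CPM in DUOD (55.7 to 69.5, 322 UMIs), 176 CPM in JEJ (162 to 190, 605 UMIs), 775 CPM in IPP (741 to 809, 2031 UMIs) and 525 CPM in NoPP (465 to 590, 279 UMIs). Each region stood apart from its neighbour in this order beyond counting error. JEJ was 2.82-fold above DUOD (2.46 to 3.23), NoPP 2.99-fold above JEJ (2.59 to 3.45) and IPP 1.48-fold above NoPP (1.30 to 1.68). A UMI was found in 21.6, 42.9, 90.8 and 58.6% of thinned cells, from DUOD through JEJ and IPP to NoPP, against at most 1.80% of T or innate lymphoid-like cells.

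Of the enzymes that act at the carboxyl end, ACE (ENSSSCG00000017296) encodes angiotensin-converting enzyme, which releases dipeptides from the carboxyl end of peptides. It had 2 UMIs in DUOD (0.387 CPM, 0.0469 to 1.40), 274 in JEJ (79.5 CPM, 70.4 to 89.5), 245 in IPP (93.4 CPM, 82.1 to 106) and 49 in NoPP (92.2 CPM, 68.2 to 122). DUOD alone stood apart, and JEJ, NoPP and IPP overlapped. JEJ was 205-fold above DUOD (56.3 to 1704), while NoPP was 1.16-fold above JEJ (0.838 to 1.58) and IPP 1.01-fold above NoPP (0.743 to 1.41). At 3000 UMIs per cell it was found in 0 of 171 DUOD cells and in 15.04, 27.0 and 20.7% of JEJ, IPP and NoPP cells, against at most 0.494% of T or innate lymphoid-like cells.

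CPO (ENSSSCG00000016135) encodes carboxypeptidase O, an enzyme anchored to the brush border membrane that prefers acidic residues at the carboxyl end. It had 2 UMIs in DUOD (0.387 CPM, 0.0469 to 1.40), 0 of 3446638 UMIs in JEJ (at most 0.870 CPM at the limit of 3 UMIs), 1197 in IPP (457 CPM, 431 to 483) and 179 in NoPP (337 CPM, 289 to 390). Both ileal regions lay far above DUOD and JEJ. NoPP was at least 387-fold above JEJ, and IPP was 1.36-fold above NoPP (1.16 to 1.60). A CPO UMI was found in 80.3% of thinned IPP cells and 58.6% of NoPP cells, and in 0 of 171 DUOD and 0 of 133 JEJ cells.

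DPEP1 (ENSSSCG00000021971) encodes membrane dipeptidase 1, a zinc enzyme that splits dipeptides and also converts leukotriene D4. Its level was 91.6 CPM in DUOD (83.5 to 100.2, 473 UMIs), 65.3 CPM in JEJ (57.0 to 74.4, 225 UMIs), 2180 CPM in IPP (2124 to 2237, 5715 UMIs) and 1940 CPM in NoPP (1823 to 2062, 1031 UMIs). It was the one member with a lower level in JEJ than in DUOD beyond counting error, by 1.40-fold (1.19 to 1.65), but at a mitochondrial limit of 10% JEJ stood 1.53-fold above DUOD instead. NoPP was 29.7-fold above JEJ (25.7 to 34.5) and 21.2-fold above DUOD (19.0 to 23.7), and IPP was 1.12-fold above NoPP (1.05 to 1.20). At 3000 UMIs per cell the share with a UMI was 21.1% in DUOD and 15.8% in JEJ, against 96.7% in IPP and 86.2% in NoPP.

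**Figure D2:**
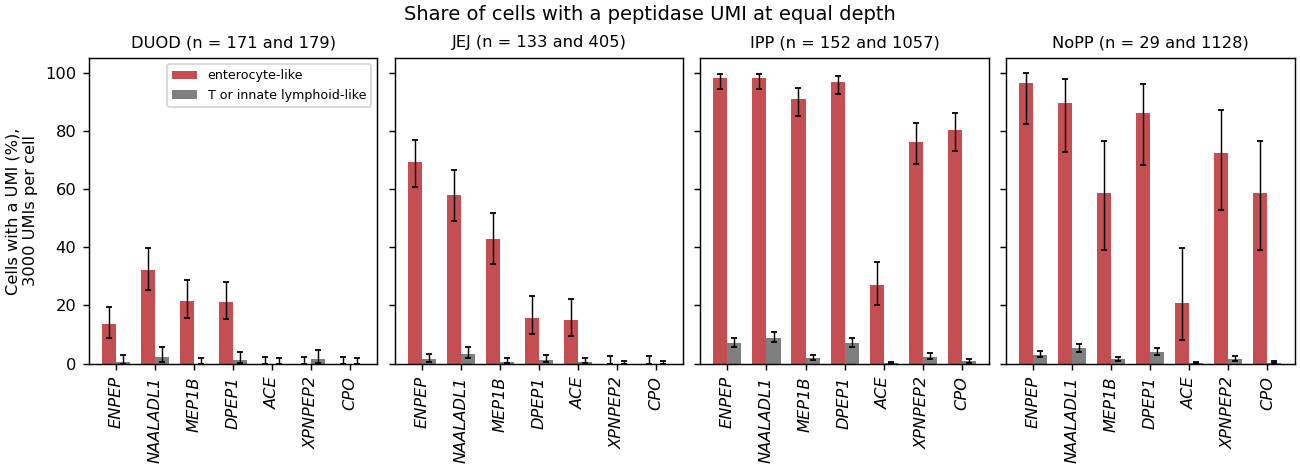
Share of cells with at least 1 UMI of each gene (%) after thinning every cell to 3000 UMIs, for enterocyte-like cells (red) and T or innate lymphoid-like cells (grey) of each region; bars carry exact Clopper-Pearson 95% intervals and panel titles give the numbers of cells of both classes. CPO is found in 80.3% of IPP and 58.6% of NoPP enterocyte-like cells and in none of the DUOD and JEJ cells, and no member exceeds 8.89% of T or innate lymphoid-like cells.

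Counted against all genes with at least 20 UMIs over both regions, 4 of the 5 members that met this minimum were at least 2-fold higher in JEJ than in DUOD, where 9.42% of 8726 genes were. None was 2-fold lower, where 11.4% of genes were. In NoPP against JEJ 6 of 7 members were at least 2-fold higher and 0 lower, against 9.9% and 13.5% of 7457 genes, with ACE the exception. In NoPP against DUOD all 7 measured members were higher, against 13.6% of 8054 genes, and 0 lower, against 17% of genes. In IPP against NoPP 0 of 7 were past 2-fold in either direction, where 6.4% of 6939 genes were higher and 5.79% lower. The median log2 ratio of the members was 1.55, 2.43, 5.27 and 0.17 in these 4 comparisons, and that of all genes lay between -0.07 and 0.03. The comparisons share regions and are not independent of each other. At a mitochondrial limit of 10% only 8 NoPP enterocyte-like cells with a median of 1880 UMIs remained. None of the 4 members that still met the minimum of UMIs was then 2-fold higher in NoPP than in JEJ. The share of all genes at this limit is not given here. ENPEP and MEP1B were lower, at log2 ratios of -0.76 and -0.57, on 4 and 2 NoPP UMIs. Their NoPP levels were 251 CPM (68.5 to 644) and 126 CPM (15.2 to 454). These intervals held the JEJ levels of 426 and 187 CPM at that limit. They lay below the main NoPP levels of 2547 and 525 CPM. The 27 NoPP cells with over 10 to 25% mitochondrial UMIs held ENPEP at 2618 CPM (2480 to 2762) and MEP1B at 537 CPM (476 to 604). In IPP the 14 cells within the limit of 10% held 2010 CPM (1698 to 2362) and 574 CPM (414 to 776). The part of mitochondrial share in the NoPP levels was not tested.

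Several members were found together in the same ileal cells, where most members taken alone had a UMI in most thinned cells. Whether members occur together beyond these shares of single genes was not tested. With all cells at 3000 UMIs, the median number of the 7 genes with a UMI was 1 in DUOD and 2 in JEJ, but 6 in IPP and 5 in NoPP. At least 5 of the 7 were found together in 138 of 152 IPP cells (90.8%) and 19 of 29 NoPP cells (65.5%). No DUOD or JEJ cell held more than 4. In DUOD this limit was set by single genes, since ACE, XPNPEP2 and CPO had a UMI in 0 of 171 thinned cells. In JEJ XPNPEP2 and CPO had a UMI in 0 of 133. All 7 were found in 27 IPP cells and 1 NoPP cell, and none of the 7 in 72 DUOD cells (42.1%), 13 JEJ cells (9.77%), 1 IPP cell and 0 NoPP cells.

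Other genes of peptide digestion and uptake were taken from 4 lists, also chosen with earlier results known. Of all genes, 9.42% were 2-fold higher and 11.4% lower in JEJ than in DUOD. The shares were 9.9% and 13.5% in NoPP against JEJ and 13.6% and 17% in NoPP against DUOD. In IPP against NoPP they were 6.4% and 5.79%. Counts of 1 gene in a list lay near these shares and are not read as results about the list. Of 7 other membrane peptidases with enough UMIs, 3 were 2-fold higher and 1 lower in JEJ than in DUOD, with a median log2 ratio of 0.47. Neprilysin MME, an endopeptidase, was 7.98-fold higher in JEJ (385 CPM) than in DUOD (48.2 CPM), with an interval of 6.97 to 9.18. Enteropeptidase TMPRSS15, which activates trypsinogen, went the opposite way, from 2379 to 26.4 CPM, 90.1-fold lower in JEJ (73.3 to 112). In NoPP against JEJ 2 of these 7 were higher and 1 lower, and in NoPP against DUOD 4 and 1. TMPRSS15 was the lower one in each, on 1 NoPP UMI, at 14.0-fold below JEJ (2.46 to 560) and 1264-fold below DUOD (227 to 49946). In IPP against NoPP none of 7 was past 2-fold.

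Of 11 peptide and amino acid carriers 5 were 2-fold higher and 3 lower in JEJ than in DUOD. SLC6A19, the main carrier of neutral amino acids in the brush border, was 25.1-fold higher in JEJ (243 CPM) than in DUOD (9.68 CPM), with an interval of 18.9 to 34.1. In NoPP it was 38.3-fold above DUOD (28.0 to 53.3). SLC1A1, a carrier of glutamate and aspartate, was 3.69-fold lower in JEJ than in DUOD (2.30 to 6.18), and CLTRN, a partner protein of amino acid carriers, 2.39-fold lower (1.24 to 4.98). SLC1A1 was 42.0-fold higher in NoPP than in JEJ (26.4 to 70.0) and 11.4-fold higher than in DUOD (8.83 to 14.7), and SLC6A20, a carrier of proline, was 12.6-fold higher in NoPP than in JEJ (8.78 to 18.2). The proton-coupled carrier SLC36A1 had 69 UMIs in JEJ and 0 in NoPP, at least 3.55-fold lower. Of the carriers with enough UMIs, 2 of 10 were higher and 2 lower in NoPP than in JEJ, 5 of 11 higher and 1 lower in NoPP than in DUOD, and 1 of 9 higher in IPP than in NoPP. That last gene was SLC3A1, the heavy chain of the cystine carrier, at 2.71-fold (2.03 to 3.69), and SLC3A1 was the lower one in NoPP against DUOD, by 2.09-fold (1.58 to 2.84).

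Of 10 peptidases found inside the cell, in the cytosol, the endoplasmic reticulum or lysosomes, 3 were higher and 0 lower in JEJ than in DUOD, 1 higher and 1 lower in NoPP than in JEJ, and 4 higher and 1 lower in NoPP than in DUOD. ERAP2, an aminopeptidase of the endoplasmic reticulum, was 3.75-fold higher in NoPP than in JEJ (2.11 to 6.51) and 2.86-fold lower in IPP than in NoPP (1.61 to 4.95), which was the only one of 10 past 2-fold there. LTA4H, an aminopeptidase and leukotriene A4 hydrolase, had 3 UMIs in NoPP and was 8.84-fold below JEJ (2.98 to 43.3) and 3.84-fold below DUOD (1.28 to 18.9). Of 12 genes of brush border structure 5 were higher and 2 lower in JEJ than in DUOD, 2 higher and 0 lower in NoPP than in JEJ, 5 higher and 0 lower in NoPP than in DUOD, and none past 2-fold in IPP against NoPP. The scaffold PDZK1, which binds brush border carriers, was 9.34-fold higher in JEJ than in DUOD (8.16 to 10.7) and 15.2-fold higher in NoPP than in DUOD (13.0 to 17.9).

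Within a region, the members were mostly highest in enterocyte-like cells. In goblet-like and enteroendocrine-like cells of IPP and NoPP all 7 measured members were at least 2-fold below enterocyte-like cells, where 15.9% and 18.9% of genes were in IPP and 15.4% and 17% in NoPP, and none was 2-fold higher, where 18.5% and 22.4% of genes were in IPP and 23.7% and 25.5% in NoPP. In the 13 crypt-like cells of JEJ ENPEP, MEP1B, ACE and DPEP1 had 0 of 104882 UMIs and NAALADL1 had 1, and all 5 members for which a ratio could be given were at least 2-fold lower, where 16.8% of genes were. In JEJ 5 of 6 members were 2-fold lower in goblet-like cells, 4 of 5 in enteroendocrine-like cells, 4 of 5 in BEST4 enterocyte-like cells and 5 of 5 in epithelial cells of no assigned class, against 23.2, 20.6, 18.9 and 12.3% of genes. None was 2-fold higher in the goblet-like, enteroendocrine-like, crypt-like or unassigned cells of JEJ, where 15%, 21.7%, 29.1% and 19.5% of genes were. In DUOD 4 of 5 were lower in enteroendocrine-like cells, against 26.7%.

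**Figure D3:**
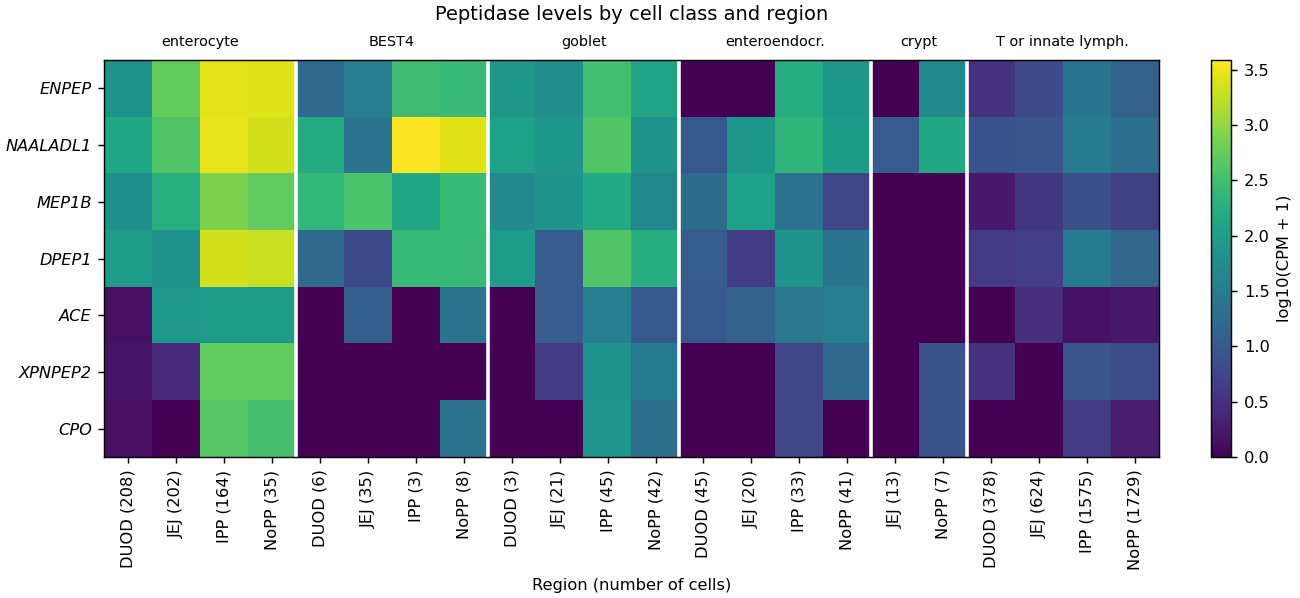
Level of each peptidase gene as log10(CPM + 1) by gated cell class and region, with the number of cells under each column; rows are to be read across columns and not against each other. Enterocyte-like columns of IPP and NoPP are high for 6 genes, NAALADL1 is as high in the 3 IPP and 8 NoPP BEST4 enterocyte-like cells, and ENPEP is at 0 in enteroendocrine-like cells of DUOD and JEJ.

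MEP1B departed from the others in BEST4 enterocyte-like cells, a population of absorptive lineage marked by the channel gene BEST4. In JEJ it stood at 371 CPM in these 35 cells (288 to 470, 68 UMIs) against 176 CPM in enterocyte-like cells, 2.11-fold higher (1.62 to 2.72), where 27.2% of genes were at least 2-fold higher. Over the alternatives of processing this ratio lay between 1.76 and 2.49. At 3000 UMIs, 15 of 21 such cells (71.4%) had a MEP1B UMI, and 1 each had an ENPEP or NAALADL1 UMI. Of the 35 cells 12 also passed the enterocyte gate, and in the other 23 MEP1B was at 343 CPM (256 to 449).

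NAALADL1 differed between regions in the same class, in few cells. It had 4 UMIs in the 35 BEST4 enterocyte-like cells of JEJ (21.8 CPM, 5.95 to 55.9), but 126 in the 8 of NoPP (2623 CPM, 2185 to 3123) and 88 in the 3 of IPP (3843 CPM, 3082 to 4734). Every one of these 11 ileal cells had a NAALADL1 UMI, none passed the enterocyte gate, and no cell held more than 47.7% of the class sum. In the same 8 NoPP cells ENPEP stood at 271 CPM (144 to 463), XPNPEP2 had 0 UMIs and CPO 1. The ileal level of NAALADL1 was thus as high as in enterocyte-like cells, while those of ENPEP and XPNPEP2 were not. These classes hold under 10 cells and were described after their values had been seen.

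There were 45, 20, 33 and 41 enteroendocrine-like cells, the hormone-secreting class, in DUOD, JEJ, IPP and NoPP. ENPEP had 0 UMIs in them in DUOD (at most 3.31 CPM) and in JEJ (at most 9.71 CPM), 75 in IPP (172 CPM, 136 to 216) and 34 in NoPP (77.7 CPM, 53.8 to 109). IPP was thus at least 17.7-fold and NoPP at least 8.0-fold above JEJ in this class. The ENPEP UMIs were spread over 20 of the 33 IPP cells and 16 of the 41 NoPP cells. Without the 1 IPP cell that also passed the enterocyte gate the level was 159 CPM (123 to 202).

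MEP1B ran the other way from JEJ to ileum in enteroendocrine-like cells. It stood at 17.7 CPM in DUOD (10.1 to 28.7, 16 UMIs), 110 CPM in JEJ (76.2 to 154, 34 UMIs), 20.7 CPM in IPP (9.45 to 39.3, 9 UMIs) and 4.57 CPM in NoPP (0.554 to 16.5, 2 UMIs). The 1 IPP cell that also passed the enterocyte gate held 5 of the 9 UMIs, and without it the IPP level was 9.50 CPM (2.59 to 24.3). JEJ was the highest region here, whereas in enterocyte-like cells it lay below both ileal regions. The level in NoPP was 24.1-fold below JEJ, with a ratio of 0.0415 (0.00483 to 0.162). From DUOD to JEJ MEP1B rose 6.24-fold (3.35 to 12.1), the same way as in enterocyte-like cells. The intervals of IPP against DUOD (0.456 to 2.82) and NoPP against DUOD (0.0289 to 1.10) held 1. The JEJ UMIs lay in 8 of 20 cells, with 10 of the 34 in 1 cell.

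ACE was sparse in enteroendocrine-like cells. In DUOD it had 8 UMIs in 8 of 45 cells (8.83 CPM, 3.81 to 17.4), against 2 UMIs in enterocyte-like cells. It was the one member at least 2-fold higher in this class, where 16.5% of genes were. The interval overlapped that of DUOD barcodes of 1 to 99 UMIs, which are too shallow to count as cells (3.68 CPM, 1.68 to 6.98), and the enterocyte-like level lay below these barcodes. At 3000 UMIs per cell 3 of 45 enteroendocrine-like and 0 of 179 T or innate lymphoid-like cells of DUOD had an ACE UMI. No expression of ACE in this class is read from the DUOD counts. In the other regions ACE stood at 13.0 CPM in JEJ (4 UMIs), 25.3 CPM in IPP (11 UMIs) and 34.3 CPM in NoPP (15 UMIs). The shallow barcodes of these regions held 59.1, 20.1 and 19.4 CPM, and T or innate lymphoid-like cells 2.04, 0.481 and 0.730 CPM. The part of free RNA in these enteroendocrine-like counts was not tested.

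In goblet-like cells, the mucus-secreting cells, much of the signal lay in few barcodes. In IPP, 6 of 45 goblet-like cells also passed the enterocyte gate, and these held 86.2% of the 247 ENPEP UMIs, 86.5% of the 52 XPNPEP2 UMIs, 85.7% of the 56 CPO UMIs and 67.2% of the 317 DPEP1 UMIs. Without them ENPEP was at 56.9 CPM (39.4 to 79.6), in place of 318 CPM, and DPEP1 at 174 CPM (142 to 211), in place of 408 CPM. In NoPP 1 of 42 cells held 51 of the 68 ENPEP UMIs, and without it the level was 33.5 CPM (19.5 to 53.6). Whether such barcodes hold more than 1 cell was not tested.

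In barcodes of 1 to 99 UMIs, which hold free RNA of the suspension, both ileal regions lay above DUOD and JEJ for 6 of the 7 members. The exception was ACE, at 3.68 CPM in DUOD, 59.1 CPM in JEJ (52.9 to 65.8), 20.1 CPM in IPP (16.5 to 24.2) and 19.4 CPM in NoPP (15.7 to 23.7), so that JEJ was highest here, whereas JEJ, IPP and NoPP overlapped in the cells. ENPEP stood at 36.8 CPM in DUOD, 222 CPM in JEJ, 671 CPM in IPP and 375 CPM in NoPP. XPNPEP2 stood at 5.31, 2.15, 123 and 94.8 CPM and DPEP1 at 95.2, 65.4, 854 and 473 CPM in the same order. In IPP the enterocyte-like cells lay above this pool for every member, which amounted to 21.5 to 39.2% of their level. In DUOD and JEJ the DPEP1 level of the cells did not exceed that of the pool (104 and 100.1%). Nor did the levels of ACE, XPNPEP2 and CPO in DUOD and of XPNPEP2 and CPO in JEJ, on at most 6 UMIs in the cells. For ENPEP, MEP1B and NAALADL1 the pool amounted to 34.1 to 56.2% of the cell level in these 2 regions, and for ACE in JEJ to 74.3%. T or innate lymphoid-like cells held 2.40 to 6.39% of the level of the pool in IPP and 2.22 to 6.47% in NoPP.

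Enterocyte-like barcodes above the mitochondrial limit, with over 25 to 80% mitochondrial UMIs, totalled 915, 1306, 303 and 239 from DUOD through JEJ and IPP to NoPP. They held CPO at 0, 0, 256 and 102 CPM and XPNPEP2 at 0.291, 0.794, 338 and 241 CPM. ACE stood at 1.16 CPM in DUOD and 79.5, 66.8 and 43.6 CPM in JEJ, IPP and NoPP. Both ileal regions lay above DUOD and JEJ for 6 of the 7 members in these barcodes, again with ACE as the exception, for which JEJ was highest.

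**Figure D4:**
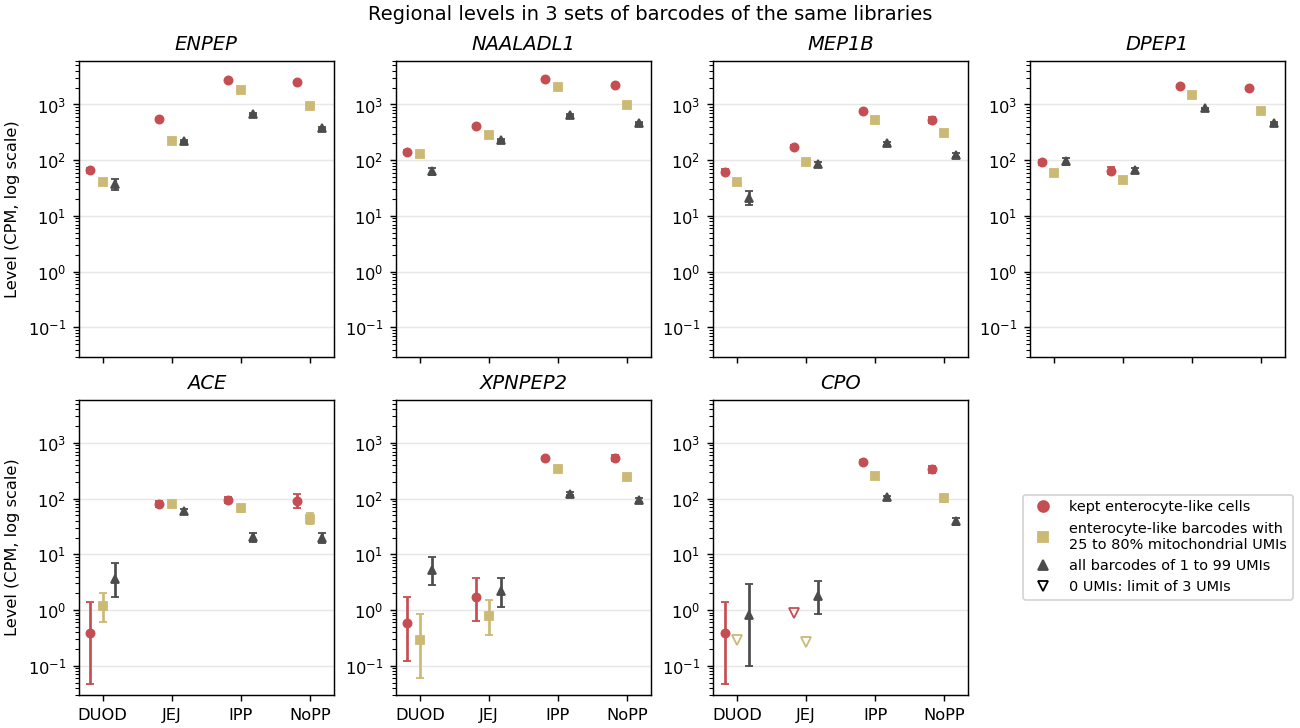
Level of each gene (CPM, log axis) by region in kept enterocyte-like cells (red circles), in enterocyte-like barcodes with over 25 to 80% mitochondrial UMIs (yellow squares) and in all barcodes of 1 to 99 UMIs (dark triangles), with exact Poisson 95% intervals; open triangles mark the limit of 3 UMIs for a count of 0. In all 3 sets IPP and NoPP lie above DUOD and JEJ for 6 genes, such as XPNPEP2 at 123 CPM in IPP and 2.15 CPM in JEJ in barcodes of 1 to 99 UMIs. ACE is highest in JEJ in both sets of barcodes that were not kept. For DUOD and JEJ, DPEP1 is as high in barcodes of 1 to 99 UMIs as in the cells, but lower in those with over 25 to 80% mitochondrial UMIs.

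Enterocytes climb the villus as they mature, and the apolipoprotein gene APOA4 is known in mouse as a gene of the upper villus. Cells of each region were ranked by the APOA4 share of their UMIs and cut into 3 groups of near equal size, a split chosen after the data had been seen. Between the groups with most and least APOA4, the interval of the ratio lay above 1 for 4 members in JEJ, 5 in IPP and 4 in NoPP, and below 1 for none of them. ACE was among these in all 3 regions. In JEJ it stood at 39.0 CPM (29.2 to 51.0) in the group with least APOA4, 102 CPM in the middle and 116 CPM (89.3 to 147) in the group with most, 2.97-fold higher (2.03 to 4.35) in the last than in the first. The same ratio was 1.52 in IPP (1.08 to 2.17) and 3.13 in NoPP (1.09 to 12.3), where the first group held 4 UMIs in 12 cells. Among the other members the ratio was 1.83 for DPEP1 (1.23 to 2.72), 1.39 for MEP1B and 1.25 for ENPEP in JEJ. In IPP it was 1.47 for MEP1B (1.31 to 1.66), close to that of ACE, 1.29 for NAALADL1 (1.21 to 1.37), 1.24 for XPNPEP2 and 1.22 for CPO. In NoPP it was 1.57 for DPEP1 (1.30 to 1.91), 1.47 for NAALADL1 (1.24 to 1.76) and 1.38 for ENPEP (1.17 to 1.62). Depth differed between these groups in every region, and mitochondrial share mainly in DUOD, JEJ and NoPP. From least to most APOA4 the medians were 7288.5, 32252 and 23180 UMIs and 8.80, 14.0 and 13.6% in DUOD, 7903, 22671 and 3970 UMIs and 10.51, 12.2 and 2.69% in JEJ, and 3049, 18152 and 19392 UMIs and 3.87, 14.0 and 14.6% in NoPP. In IPP the medians were 12614, 17406.5 and 17543 UMIs and 17.3, 18.7 and 17.3%. The part of depth and mitochondrial share in the results was not tested.

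In DUOD the sign was opposite for 2 members. ENPEP stood at 101 CPM (85.2 to 119) in the group with least APOA4, 67.8 CPM in the middle and 32.4 CPM (24.2 to 42.4) in the group with most, 3.12-fold lower in the last. DPEP1 was 2.50-fold lower, with a ratio of 0.399 (0.309 to 0.512), while the intervals for MEP1B (0.565 to 1.05) and NAALADL1 (0.684 to 1.00) held 1. ENPEP and DPEP1 were also lower in the deeper cells of DUOD. ENPEP stood at 103 CPM (84.1 to 125) in the lower and 57.1 CPM (50.1 to 64.9) in the upper 104 cells by UMIs. DPEP1 stood at 121 and 84.5 CPM. NAALADL1 was lower in the deeper cells too, at 204 CPM (177 to 234) and 125 CPM (115 to 136). The MEP1B intervals overlapped. The DUOD barcode rich in FABP6 was in the group with least APOA4 and held 28 of its 145 ENPEP UMIs and 38 of its 208 DPEP1 UMIs. DUOD cells with at least 5 UMIs of TM4SF1 per 10000, a membrane protein gene, held ENPEP at 35.9 CPM (111 cells) and the others at 115 CPM (97 cells), a 3.21-fold difference.

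**Figure D5:**
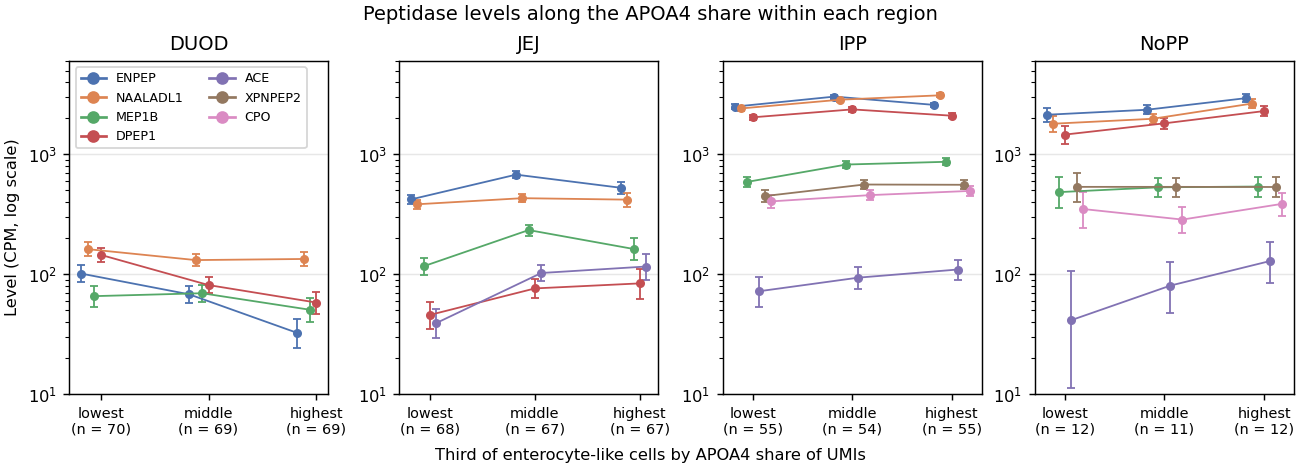
Level of each gene (CPM, log axis) in 3 groups of enterocyte-like cells ranked by APOA4 share within each region, with exact Poisson 95% intervals and the number of cells below; genes with under 20 UMIs in a region are left out. ACE goes from 39.0 to 116 CPM across the JEJ groups, and ENPEP from 101 to 32.4 CPM across the DUOD groups.

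Genes whose pattern was most like that of each member were listed by the Pearson correlation of log2(CPM + 10) over 13 region and class groups with at least 10 cells, among 5837 genes. These values describe groups that share libraries and depth. For CPO the 3 most alike were SLC10A2, the ileal bile acid carrier (r = 0.998), ENSSSCG00000001724 (0.986) and XPNPEP2 (0.982). XPNPEP2 had SLC10A2 (0.984), CPO (0.982) and the oestrogen sulfotransferase SULT1E1 (0.978). DPEP1 had ASS1, argininosuccinate synthase (0.975), FLVCR1, a haem and choline carrier (0.954), and TMIGD1 (0.951). For ENPEP they were the transcription factor MAF (0.975), TMC5 (0.949) and NAALADL1 (0.937), and for NAALADL1 PCK1, a gluconeogenic enzyme (0.940), ANPEP, aminopeptidase N (0.938), and ENPEP (0.937). ACE had 3 genes of terminal sugar and amino acid absorption, MGAM, maltase-glucoamylase (0.969), the glucose carrier SLC5A1 (0.936), which is also among the markers that gated enterocytes, and SLC6A19 (0.927). MEP1B had ARHGAP26 (0.933), PRKAG2 (0.886) and LY75 (0.872), and its correlations with ENPEP, XPNPEP2 and NAALADL1 were 0.663, 0.604 and 0.689.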

How the data were processed

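The deposited files hold raw UMI counts (count) per gene and barcode, made with Cell Ranger 4 per the file headers and version 4.0.6 per the submitters' processing notes. Coordinates are left out, because the build is not given in the sources used here. Of 25880 genes 17733 had a symbol in the files, 977 took one from a gene name table and 7170 had none.

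The members, lists and splits were chosen with earlier results of these data known. Gate thresholds were set after the marker distributions had been seen. Epithelial barcodes had at least 3 UMIs of epithelial markers and at least 3 times those of non-epithelial markers. Enterocyte and goblet gates needed 100, and enteroendocrine, BEST4 enterocyte, crypt and tuft gates 10, marker UMIs per 10000, each from at least 3 markers; the last 5 took precedence over the enterocyte gate, and barcodes in more than 1 of them stayed unassigned. Other barcodes took the non-epithelial list with most UMIs. No doublet caller was used for the main values. UMIs were summed per region and class and divided by the class total (CPM). Ratios carry exact intervals for 2 Poisson counts and shares the Clopper-Pearson interval; a count of 0 was set to 3 UMIs over the class. A ratio of 2-fold counted as past the threshold. Named genes were the members, the 3 genes of the lists furthest past 2-fold in each direction in each comparison, and the 3 genes most alike to each member. Python 3.11.15, NumPy 2.4.6, SciPy 1.17.1, pandas 2.3.3 and Scanpy 1.11.5 were used. The ratio and its interval were tested on simulated data. Alternatives covered filters, shared barcodes, doublet scores, gates, clusters, totals, means of cells and single cells.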

Additional observations from a re-analysis of the deposited data

Results flagged for a closer look

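MEP1B went in opposite directions in 2 cell classes. From JEJ to NoPP its log2 ratio was 1.58 in enterocyte-like and -4.59 in enteroendocrine-like cells, and this difference was not tested.

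Values outside the main comparisons came from classes with under 10 cells in which a member stood at or above the enterocyte-like level. NAALADL1 had 126 UMIs in 8 BEST4 enterocyte-like cells and 11 UMIs in 2 tuft-like cells of NoPP, 88 UMIs in 3 BEST4 enterocyte-like cells of IPP, and 10 UMIs in 6 BEST4 enterocyte-like cells of DUOD, where 1 cell held 90% of them. MEP1B had 15 UMIs in the same 6 DUOD cells, 73.3% of them in 1 cell. ENPEP had 5 and DPEP1 6 UMIs in 3 goblet-like cells of DUOD, all in 1 cell that also passed the enterocyte gate. XPNPEP2 had 4 UMIs in 6 stromal and endothelial-like cells of DUOD.

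Barcodes of 1 to 99 UMIs held members that were nearly missing from the enterocyte-like cells of their library. The totals of the 2 sets differ, so levels are given beside the UMIs. In DUOD these barcodes held 9 ACE UMIs (3.68 CPM), against 2 in the cells (0.387 CPM). They held 13 XPNPEP2 UMIs (5.31 CPM), against 3 (0.581 CPM). In JEJ they held 12 XPNPEP2 UMIs (2.15 CPM, 1.11 to 3.76), against 6 (1.74 CPM, 0.639 to 3.79), with overlapping intervals. They held 10 CPO UMIs (1.80 CPM, 0.861 to 3.30), against 0.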

How the results depend on the processing

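The 28 member ratios were those between regions that could be given and that of MEP1B in BEST4 enterocyte-like cells of JEJ. Of these, 19 were past 2-fold. They included the MEP1B ratio in BEST4 enterocyte-like cells and XPNPEP2 in JEJ against DUOD, on 6 and 3 UMIs (0.640 to 18.5). Under each alternative but the mitochondrial limit of 10%, 17 to 19 stayed past 2-fold the same way. At the limit of 10%, 7 of 13 did. That limit left 8 NoPP cells with 15909 UMIs and 14 IPP cells with 73149 UMIs. Log2 ratios of NoPP against JEJ turned to -0.76 for ENPEP and -0.57 for MEP1B, on 4 and 2 NoPP UMIs. Members at least 2-fold higher then numbered 0 in NoPP against JEJ (6 in the main values), 2 in NoPP against DUOD (7) and 6 in IPP against NoPP (0). The pairs of member and region with a UMI in at least 50% of enterocyte-like cells fell from 20 to 8. The pairs highest in enterocyte-like cells fell from 22 to 14. Ranking the classes needed at least 10 enterocyte-like cells in a region, so no NoPP pair could be ranked at that limit. This part of the second fall was set by the rule and shows no change of class. Keeping shared barcodes, which took NoPP from 35 to 141 enterocyte-like cells, gave 13 pairs with a UMI in at least 50% of cells. A limit of 80%, chosen after seeing the data, gave 1 member higher in IPP than in NoPP, and a threshold of 4-fold, also chosen later, 2 members higher in JEJ than in DUOD in place of 4. The cause was not tested. The shares of all genes past the threshold under these alternatives are not given here. Counts of members under them are therefore not read as results about the members. No paired analysis was possible because 1 matrix per region pools the 4 titles and no cell carries a title, and for the same reason no title could be left out. Depth limits statements on ACE, XPNPEP2 and CPO in DUOD and JEJ, and the 35 NoPP cells limit those on NoPP.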
